A study of Mus musculus with 31 samples.

Results

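The genes described here mark the neurons of the olfactory bulb, the forebrain structure on which olfactory axons end. They are 10 of the 47729 genes in the deposited count table, found by matching Ensembl identifiers to the symbols Tbr1, Eomes, Tbx21, Reln, Slc17a6, Slc17a7, Gad1, Gad2, Th and Calb2. All 10 matched and passed a filter on low counts that kept 19332 of the 33331 genes with a read. They were measured in 31 RNA-seq libraries made from pieces of nerve cut by laser from cryosections of mouse embryos. All embryos carried the Sox10:H2BVenus transgene, in which a bacterial artificial chromosome drives a nuclear fluorescent protein from Sox10 regulatory sequence in neural crest-derived glia, and the fluorescence guided the cutting.

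The groups were olfactory nerve of the mucosal lamina propria at E11.5 (4 libraries, from 2 embryos), the same nerve at E13.5 (7 libraries) and the olfactory nerve layer (ONL) around the bulb at E13.5 (5 libraries), each of the last pair from 4 embryos. At E16.5 they were olfactory nerve, outer ONL and inner ONL (4 libraries each, from 4 embryos) and trigeminal nerve (3 libraries, from 3 embryos). Several pieces of the early groups therefore came from the same embryo, and which pieces share one was not given, so every p-value on an early group is too small. The E16.5 regions were cut from shared cryosections, so those groups share embryos, but which embryo a replicate number stands for was not given. Each library pooled tissue from several sections. Inner and outer ONL were cut only by distance from the bulb, closest or furthest, with no boundary to follow. The target of the microdissection was glia. By in situ hybridization the paper found that the pieces held some tissue from beside the nerve. It also reported presumed migrating neurons on the olfactory nerve itself.

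Mitral and tufted cells, the output neurons of the bulb, release glutamate and depend on T-box transcription factors as they form. Granule and periglomerular cells are local interneurons that release GABA, and subsets of periglomerular cells also make dopamine or carry calretinin. Sensory axons run through the ONL and synapse on both classes in the glomeruli just beneath it, whereas the olfactory nerve in the mucosa holds axons, glia and, in embryos, migrating neurons, but no bulb tissue.

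The early libraries were grouped as in the authors' table of group means, which differs from the labels. In that table the ONL mean at E13.5 was made of all 4 libraries that carry the label E11.5 olfactory nerve and 1 that carries the label E13.5 olfactory nerve (number 1). The nerve mean at E13.5 was made of the other 6 with that label and ONL number 1, and the nerve mean at E11.5 of the remaining 4 with an E13.5 ONL label (numbers 2 to 5). Of the 31 labels, 21 matched the group that the library was averaged in and 10 did not, all of them early. Prss56 and Npy, genes of the ensheathing glia of the ONL, stood at 32.9 to 90.0 and 166 to 458 CPM in the 5 libraries that the table places in ONL at E13.5. They did not exceed 0.318 and 3.16 CPM in the other 11 early libraries, which include all 5 with an E13.5 ONL label, and were at 244 CPM or more and 1045 CPM or more in the ONL libraries of E16.5. Each early comparison of fold changes is followed by values or calls, for some of the genes, with libraries grouped by label. Tests of shares of reads and list counts follow the authors' grouping alone. Library totals ranged from 3512627 to 36705535 counts. Levels are counts per 1000000 (CPM) on edgeR's TMM scale, given as mean ± SD over libraries, and a library with at most 3 counts of a gene was treated as no different from 0, which covers counting error only. Fold changes are log2 ± standard error from edgeR's quasi-likelihood test in 1 fit of all libraries, called at a Benjamini-Hochberg adjusted p under 0.05 over the 19332 genes.

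Promoters are shown first for genes whose levels moved together (Tbr1 and Eomes), for a pair whose levels diverged (Gad1 and Gad2) and for Th. The sequences come from RefSeq on GRCm38.p6, which held 9 of the 10 genes, with no entry matched for Calb2. Each runs 5′ to 3′ on the gene's own strand over the 250 bases before the annotated start, leaving out any exon of a coding transcript. Capitals mark the motifs searched on both strands, namely TAATTA (homeodomain core), CCAAT (bound by NF-Y), TATAAA (core promoter element), TGACGTCA (cyclic AMP response element) and AGGTGTGA (T-box element). The printed stretches are chr2:61804203-61804452 (plus strand) for Tbr1, chr9:118477939-118478188 (plus) for Eomes, chr2:70561879-70562041 (plus) for Gad1, chr2:22622077-22622204 (plus) for Gad2 and chr7:142900015-142900245 (minus) for Th.
Tbr1: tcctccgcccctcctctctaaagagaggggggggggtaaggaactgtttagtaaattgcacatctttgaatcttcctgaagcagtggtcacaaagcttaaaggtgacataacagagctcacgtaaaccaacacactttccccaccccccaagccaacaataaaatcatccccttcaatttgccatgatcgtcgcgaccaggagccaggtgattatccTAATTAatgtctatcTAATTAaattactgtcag
Eomes: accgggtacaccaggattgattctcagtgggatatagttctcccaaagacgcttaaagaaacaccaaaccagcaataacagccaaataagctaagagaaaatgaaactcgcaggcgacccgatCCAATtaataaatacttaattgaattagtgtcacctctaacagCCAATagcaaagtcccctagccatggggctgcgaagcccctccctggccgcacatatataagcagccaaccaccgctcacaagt
Gad1: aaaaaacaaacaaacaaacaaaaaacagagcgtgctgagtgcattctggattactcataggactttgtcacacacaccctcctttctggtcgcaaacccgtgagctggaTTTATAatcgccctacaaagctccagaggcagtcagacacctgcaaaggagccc
Gad2: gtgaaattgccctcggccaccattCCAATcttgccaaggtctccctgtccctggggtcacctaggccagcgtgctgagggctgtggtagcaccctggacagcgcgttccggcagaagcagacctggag
Th: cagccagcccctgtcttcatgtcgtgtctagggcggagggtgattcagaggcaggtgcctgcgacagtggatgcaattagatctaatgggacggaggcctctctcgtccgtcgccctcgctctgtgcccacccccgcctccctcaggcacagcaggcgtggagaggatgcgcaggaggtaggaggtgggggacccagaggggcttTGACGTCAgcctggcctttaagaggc

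TAATTA occurred 2 times before the Tbr1 start, at bases 33 to 28 and 18 to 13 before it, and was present in 4.84% of all 32851 promoters in the table. Eomes had 2 CCAAT matches, at bases 127 to 123 and 84 to 80, and Gad2 had 1 at 226 to 222, a motif found in 33.8% of promoters. Gad1 had 1 TATAAA match on the opposite strand, at 141 to 136, where the printed strand reads TTTATA (12.4% of promoters). Th had TGACGTCA 45 to 38 bases before its start, in 1.55% of promoters. AGGTGTGA, present in 1.12%, was in none of the windows of the 9 genes. Tbr1 and Eomes, whose levels were alike across libraries, shared no motif of the 5, and neither did Gad1 and Gad2. Of the genes not printed, Tbx21 had 1 CCAAT match and a second annotated start of Slc17a6 had 1 TAATTA match. These are matches of letters in a window and not tested sites.

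**Figure D1:**
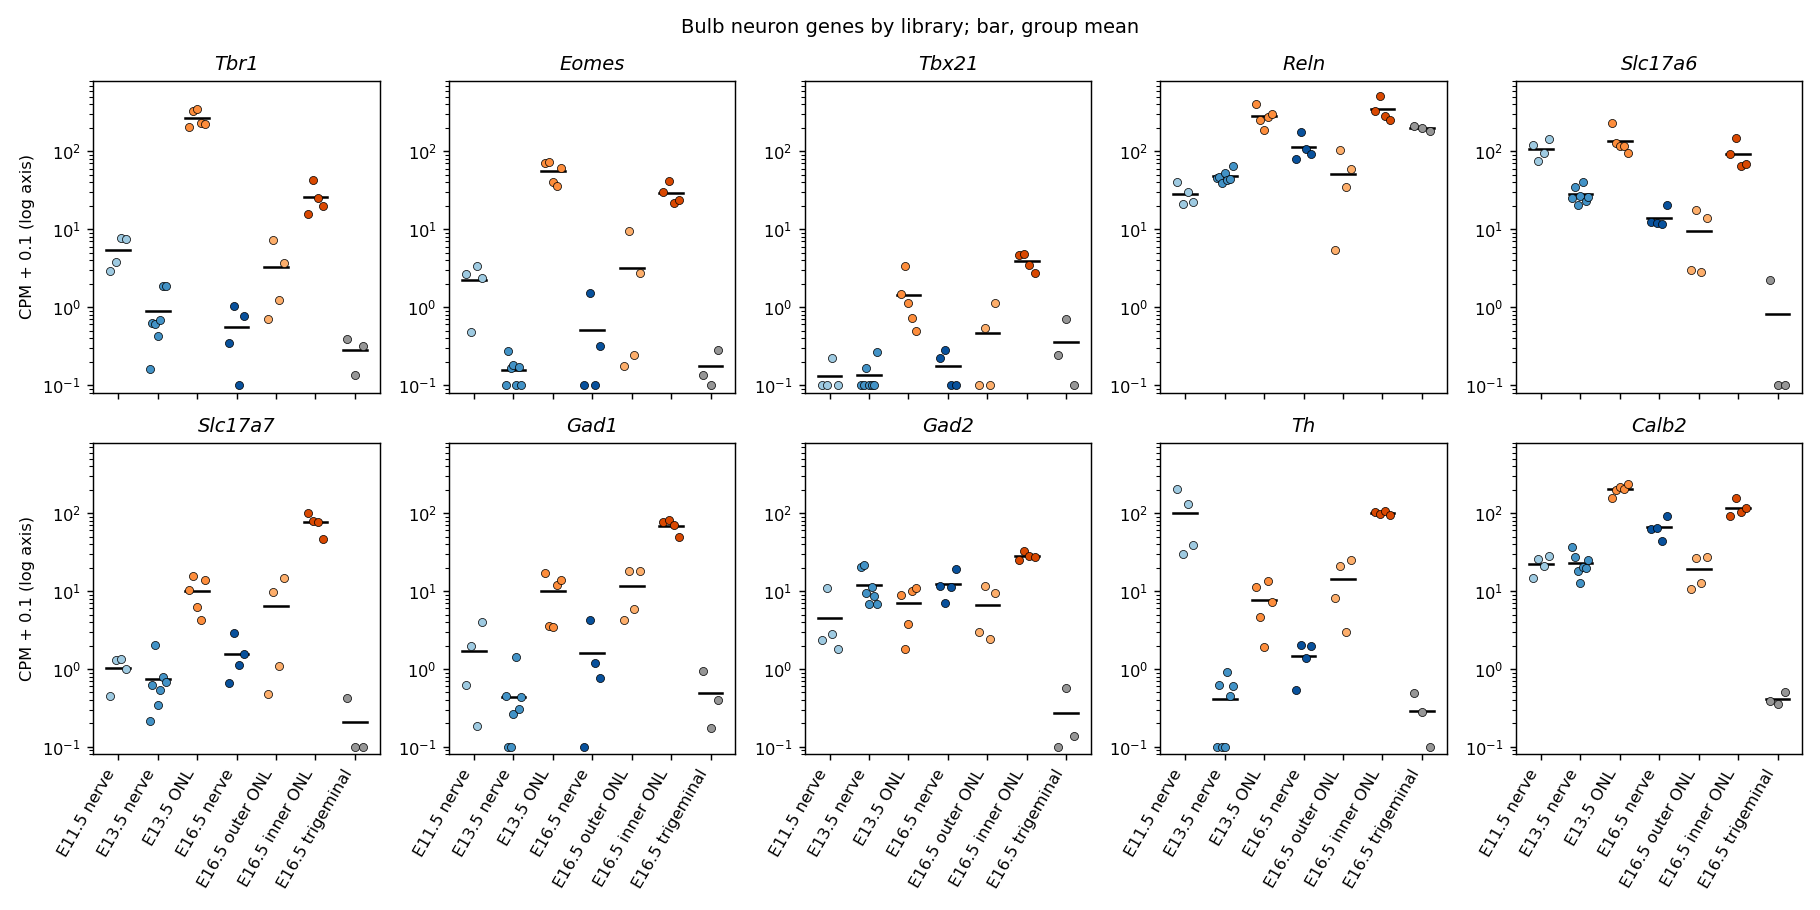
Level of each gene (CPM plus 0.1, log axis) in each library (points) of the 7 groups, with the group mean as a bar. Early groups follow the authors' table of group means. Inner ONL at E16.5 and ONL at E13.5 hold the highest mean of 9 genes, and E11.5 nerve that of Th by a margin of less than 1 CPM.

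Tbr1 encodes a T-box factor of glutamatergic forebrain neurons that is needed for mitral cells, and spans chr2:61802930-61814114 on the plus strand (ENSMUSG00000035033) of GRCm38, the build of all positions given here. It was highest in ONL at E13.5, where the 5 libraries stood at 208, 327, 346, 228 and 228 CPM (267 ± 64.0, n = 5). In inner ONL at E16.5 the libraries stood at 15.8, 43.0, 24.7 and 19.9 CPM (25.8 ± 12, n = 4). The E13.5 and E16.5 ranges did not overlap, and neither overlapped any nerve group. Nerve at E11.5 held 2.83, 3.67, 7.59 and 7.37 CPM, whereas the lowest, median and highest of the 7 nerve libraries at E13.5 were 0.0584, 0.520 and 1.75 CPM. At E16.5 the nerve held 0.248, 0.928, 0 and 0.665 CPM, and trigeminal nerve 0.0361 to 0.288 CPM. The 3 lowest groups overlapped one another.

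Eomes (also called Tbr2), a T-box factor of glutamatergic neuron precursors that mitral and tufted cells keep, spans chr9:118478212-118486132 on the plus strand (ENSMUSG00000032446). Its levels in ONL at E13.5 were 70.3, 73.5, 40.2, 36.1 and 61.4 CPM (56.3 ± 17.2) and in inner ONL at E16.5 29.6, 41.3, 21.5 and 23.3 CPM (28.9 ± 8.94). Unlike those of Tbr1, these ranges overlapped. Nerve at E13.5 had 0 to 1 counts in each of its 7 libraries, at the floor throughout, whereas nerve at E11.5 had 14 to 96 counts (0.380 to 3.24 CPM). In nerve at E16.5, replicate 2 held 23 counts and the other 3 libraries 0 to 4.

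Tbx21 (T-bet), a T-box factor of mitral and tufted cells that is also known from T lymphocytes, spans chr11:97098071-97115331 on the minus strand (ENSMUSG00000001444). It was the least abundant of the 10 genes per length of exon in ONL at both stages. It reached 4.57, 4.66, 3.38 and 2.65 CPM in inner ONL at E16.5 (43 to 68 counts), and 1.38, 3.24, 1.04, 0.623 and 0.394 CPM in ONL at E13.5. These ranges overlapped. The olfactory nerve was at the floor at each of the 3 stages, with 0 to 3 counts in all 15 libraries. Trigeminal nerve replicate 2 held 17 counts. Summed over 5 genes of T and natural killer cells, which also make Tbx21 and Eomes, the libraries of inner ONL held 0 to 0.844 CPM and those of E13.5 ONL 0 to 0.910 CPM, with Cd3e at 0 counts in every library of both. In trigeminal nerve the sum was 0.956 to 5.38 CPM. Of these 5 genes 2 passed the filter, and edgeR called 0 of them between inner and outer ONL and between ONL and nerve at E13.5 (0 and 0 at an unadjusted p under 0.05). Of all genes, 14.1% and 31.5% were called in either direction in these comparisons, so 0 of 2 says little.

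Reln encodes reelin, a secreted glycoprotein made by mitral cells and by Cajal-Retzius cells, and spans chr5:21884454-22344702 on the minus strand (ENSMUSG00000042453). In inner ONL at E16.5 it stood at 332, 520.2, 287 and 254 CPM (348 ± 119) and in ONL at E13.5 at 405, 256, 190.2, 275 and 299 CPM (285 ± 78.3), with overlapping ranges. It was the only gene of the 10 with over 1 CPM on average in trigeminal nerve, where the libraries held 211, 197 and 183 CPM. Among nerve groups the order was E16.5 (114 ± 43.5 CPM), E13.5 (47.6 ± 8.28 CPM) and E11.5 (28.2 ± 8.99 CPM), and the E13.5 and E11.5 ranges overlapped. Outer ONL spread over 5.37 to 105 CPM across its 4 libraries. Antisense genes overlap Reln, of which Gm16110 held the most reads (up to 108 counts in a library), and without strand these cannot be told apart from Reln. Reln is also a gene of lymphatic endothelium, and 4 genes of that cell type summed to 43.7 to 58.7 CPM in inner ONL, 55.5 to 115 CPM in nerve at E16.5 and 66.9 to 69.6 CPM in trigeminal nerve. The 4 lymphatic genes gave 0 calls between inner and outer ONL (edgeR, 1 at an unadjusted p under 0.05) and 1 between ONL and nerve at E13.5, higher in ONL. Of all genes, 14.1% and 31.5% were called in either direction in these comparisons. The part of the lymphatic genes in the Reln levels was not tested.

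Slc17a6 (VGLUT2) and Slc17a7 (VGLUT1) encode the transporters that load glutamate into synaptic vesicles, and span chr7:51622006-51671119 on the plus strand (ENSMUSG00000030500) and chr7:45163949-45176142 on the plus strand (ENSMUSG00000070570). Slc17a6 was abundant at each of the 3 stages. It stood at 121, 74.8, 96.4 and 142 CPM in nerve at E11.5, 231, 127, 116, 119 and 95.4 CPM in ONL at E13.5 and 91.9, 147, 65.7 and 68.2 CPM in inner ONL at E16.5, and these 3 ranges overlapped. Nerve at E13.5 was lower (20.5, 26.1 and 40.4 CPM for the lowest, median and highest library) and nerve at E16.5 lower again (12.3, 11.8, 11.6 and 20.2 CPM), with no overlap between them, by a margin of less than 1 CPM. Slc17a7 had another pattern, with 100.3, 79.4, 77.8 and 46.8 CPM in inner ONL at E16.5, 10.2, 15.4, 6.18, 4.15 and 13.7 CPM in ONL at E13.5, and no nerve library above 2.78 CPM. Genes of sensory ganglia, which also use Slc17a6, summed to 53.4 to 126 CPM in nerve at E11.5, 30.6 to 88.4 CPM at E13.5 and 20.9 to 36.3 CPM at E16.5 over 5 genes, and to 1.41 to 6.33 CPM in inner ONL. Genes of olfactory sensory neurons, whose axons run in this nerve, summed to 61.3 to 107 CPM in nerve at E11.5 and 92.7 to 137 CPM at E13.5. They summed to 131 to 240 CPM in nerve at E16.5 and to 27.5 to 34.3 CPM in inner ONL. The part of either list in the Slc17a6 levels of the nerve was not tested. The sensory ganglion gene Tlx3 had reads in nerve at E11.5 and E13.5, and was at 0 in every library of the other 5 groups.

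Gad1 and Gad2 encode the 2 glutamate decarboxylases that make GABA, and span chr2:70553072-70602014 on the plus strand (ENSMUSG00000070880) and chr2:22622205-22693874 on the plus strand (ENSMUSG00000026787). The pair did not share a pattern. Gad1 stood at 76.7, 81.2, 71.1 and 48.7 CPM in inner ONL at E16.5 (69.4 ± 14.4) against 0, 4.21, 1.11 and 0.665 CPM in nerve at that stage, with no overlap. Gad2 stood at 25.2, 32.3, 28.3 and 27.7 CPM in inner ONL (28.3 ± 2.95) and at 11.6, 6.93, 11.1 and 19.3 CPM in nerve. At E13.5, the lowest, median and highest Gad1 level of the 7 nerve libraries was 0, 0.210 and 1.33 CPM, with 0 to 18 counts. For Gad2 those values were 6.72, 9.34 and 21.7 CPM, with 81 to 345 counts. At E13.5 each nerve library thus carried more Gad2 than Gad1 reads. In ONL at E13.5, Gad1 stood at 17.2, 3.46, 3.32, 11.8 and 13.7 CPM and Gad2 at 8.85, 1.73, 3.71, 9.86 and 11 CPM. Levels per kilobase of exon, which allow the 2 genes to be compared, were 9.09 ± 1.89 CPM per kb for Gad1 and 4.82 ± 0.502 for Gad2 in inner ONL. In ONL at E13.5 they were 1.29 ± 0.816 and 1.20 ± 0.693 CPM per kb, and in nerve at E16.5 0.196 ± 0.244 and 2.08 ± 0.880. The antisense gene Gad1os, whose reads cannot be told apart from those of Gad1 where they overlap, held at most 16 counts in a library.

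Th encodes tyrosine hydroxylase, the rate-limiting enzyme of dopamine synthesis, and spans chr7:142892752-142931128 on the minus strand (ENSMUSG00000000214). It had the smallest SD relative to its mean of the 10 genes in inner ONL at E16.5, with 105, 97.4, 108 and 95.1 CPM (101 ± 5.98). ONL at E13.5 held 11.1, 4.54, 1.82, 13.3 and 7.17 CPM, and nerve at E16.5 0.433, 1.92, 1.30 and 1.88 CPM. Nerve at E11.5 was as high on average as inner ONL but far more spread, with 207, 29.7, 132 and 39.3 CPM in libraries that all carry an E13.5 ONL label. By E13.5 the 7 nerve libraries held 0 to 11 counts (0 to 0.815 CPM), below every E11.5 library. Sympathetic neurons also make Th. Their other genes Dbh, which encodes dopamine beta-hydroxylase, and Hand2 were at 0 counts in all 4 libraries of E11.5 nerve, and the 5 sympathetic genes summed to 0.212 to 0.489 CPM there. In trigeminal nerve they summed to 9.59 to 17.0 CPM, with Th at 0 to 0.397 CPM. Of the 5, only the noradrenaline transporter gene Slc6a2 passed the filter, and it was lower in inner than in outer ONL and lower in ONL than in nerve at E13.5.

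Calb2 encodes calretinin, a calcium-binding protein of periglomerular cells that embryonic sensory neurons and mitral cells also make, and spans chr8:110137502-110168210 on the minus strand (ENSMUSG00000003657). It stood at 156, 199, 216, 202 and 235 CPM in ONL at E13.5 and 93.1, 159, 103 and 115 CPM in inner ONL at E16.5, and these ranges overlapped through inner ONL replicate 2 alone. Nerve at E16.5 (62.1, 65.0, 43.9 and 92.7 CPM) came next and did not overlap inner ONL, by a margin of less than 1 CPM. Outer ONL (10.6, 26.3, 12.5 and 27.3 CPM) lay below every library of nerve at its stage. Nerve at E11.5 and E13.5 was at 22.4 ± 6.02 and 22.7 ± 7.83 CPM, with overlapping ranges. Trigeminal nerve held 0.253 to 0.404 CPM.

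All 10 genes were higher in inner than in outer ONL at E16.5, the comparison of tissue nearest to the bulb with tissue furthest from it, and all 10 were called. Of all genes tested, 8.2% were called in that direction. For each of the 10 genes all inner ONL libraries lay above all outer ONL libraries, which held for 10% of all genes. The median log2 fold change was 2.92, against -0.05 over all genes. For the projection neuron and glutamatergic genes it was 3.02 ± 0.55 for Tbr1 (adjusted p = 2.16e-04), 3.22 ± 0.78 for Eomes (adjusted p = 0.00389) and 3.31 ± 1.04 for Tbx21 (adjusted p = 0.0285). Reln was 6.82-fold higher (2.77 ± 0.44, adjusted p = 3.69e-05). The highest value was that of Slc17a7, 3.55 ± 0.73 (adjusted p = 8.25e-04), and Slc17a6 was higher by 3.31 ± 0.58 (adjusted p = 1.35e-04). Among interneuron genes, Gad1 was higher by 2.59 ± 0.79 (adjusted p = 0.0248), Gad2 by 2.11 ± 0.62 (adjusted p = 0.0187), Th by 2.83 ± 0.64 (adjusted p = 0.00209) and Calb2 by 2.61 ± 0.30 (adjusted p = 5.90e-07). The same direction thus held for both neuron classes. Leaving out 1 library left 7 to 10 genes called. Tbx21 lost its call without outer ONL replicate 1, 2 or 3 or inner ONL replicate 1 or 2 (adjusted p = 0.0595 to 0.0865), Gad1 without outer ONL replicate 1 or 3 or inner ONL replicate 1 or 2 (0.0538 to 0.0851) and Gad2 without outer ONL replicate 1 or 3 or inner ONL replicate 2 (0.0505 to 0.0760). Without outer ONL replicate 2 the values were 4.86 for Eomes, 3.83 for Tbr1 and 3.40 for Reln, and without replicate 4 they were 4.57 for Tbx21 and 4.34 for Slc17a7, so the order among the genes depends on the library left out. DESeq2 called 9 genes, leaving out Gad1 (adjusted p = 0.0641), and a fit with the early libraries grouped by label called 5. Inner and outer ONL hold the same libraries in that fit, where Tbr1 stayed at 3.02 with a standard error of 1.45. In bulk tissue, fewer cells of a type and less RNA per cell cannot be told apart.

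**Figure D2:**
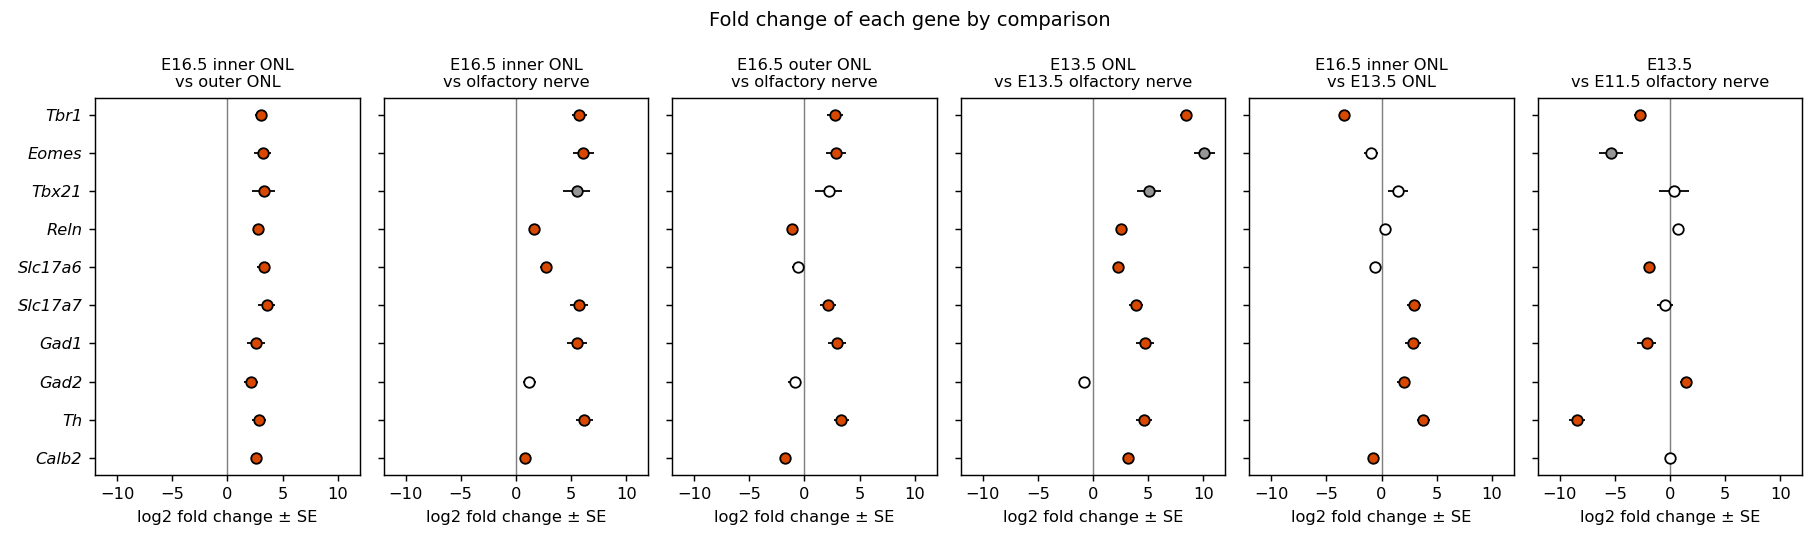
Log2 fold change ± standard error (horizontal axis) of each gene in 6 comparisons. Orange points were called, white points were not, and grey points were called against a group at the floor of 3 counts, where the fitted size is no bound. All 10 points lie right of 0 for inner against outer ONL, whereas Gad2 lies left of 0 for E13.5 ONL against nerve.

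The 4 outer ONL libraries differed among themselves. Replicates 2 and 4 held more of each of the 10 genes than replicates 1 and 3. Tbr1 stood at 0.614, 7.22, 1.14 and 3.54 CPM in replicates 1 to 4, Eomes at 0.0767, 9.36, 0.142 and 2.62 CPM and Th at 8.06, 20.7, 2.85 and 25.2 CPM. As a percentage of the inner ONL mean, the median over the 10 genes was 2.75% in replicate 1, 24.3% in replicate 2, 3.65% in replicate 3 and 21.2% in replicate 4. The same pair of libraries was higher in lists that do not hold the 10 genes. Summed pan-neuronal genes stood at 176, 813, 195 and 539.7 CPM in replicates 1 to 4. Other bulb projection neuron genes stood at 12.1, 139, 73.1 and 116 CPM and other bulb interneuron genes at 115, 208, 138 and 185 CPM. Trigeminal nerve held 93.8 to 131 and 149 to 160 CPM of these last 2 lists, so sums at this level are not particular to ONL. Genes of olfactory sensory neurons were also higher in replicates 2 and 4, with 41.8, 55.5, 43.4 and 48.8 CPM in replicates 1 to 4. Genes of ensheathing and Schwann glia were not, with 36363, 22925, 20446 and 25878 CPM. The part of these lists in the result was not tested. With only replicates 1 and 3 in outer ONL, a fit chosen after seeing these values, all 10 genes were called higher in inner ONL, a direction that this choice of the lowest libraries fixes.

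**Figure D3:**
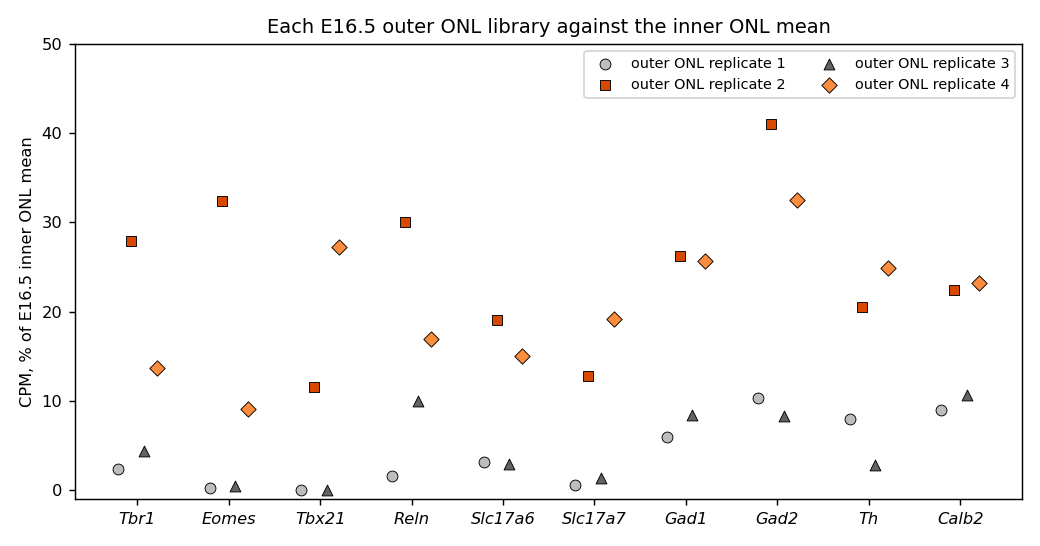
Level of each gene in each of the 4 outer ONL libraries at E16.5, as a percentage of the mean of the 4 inner ONL libraries (linear axis). Replicates 2 and 4 lie above replicates 1 and 3 for every gene, and no value reaches 50% of the inner ONL mean.

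Against olfactory nerve at E16.5, inner ONL was higher in 9 of 10 genes, where 17.7% of all genes were called higher. The exception was Gad2, at 1.21 ± 0.60 (adjusted p = 0.121), although its libraries did not overlap, and it was called in a fit of the 2 groups alone (adjusted p = 0.00405). Genes with few reads in the nerve differed most. Th was 72.5-fold higher (6.18 ± 0.77, adjusted p = 1.69e-07), Eomes 69.2-fold (against a nerve group in which replicate 2 held 23 of 27 counts), Tbr1 54.4-fold, Slc17a7 52.0-fold and Gad1 46.4-fold. Tbx21, at the floor in the nerve, was at least 20.8-fold higher (adjusted p = 5.72e-04). Slc17a6 was 6.66-fold higher, Reln 3.05-fold and Calb2 1.78-fold (0.83 ± 0.29, adjusted p = 0.0226), all genes with over 10 CPM in the nerve. The median log2 value was 5.53, or 4.96 with Tbx21 at its bound, against 0.00 over all genes. Without nerve replicate 2, Eomes stood at 8.38 and Gad1 at 6.87, both then above Th. The Calb2 call was lost with scaling by total count (0.68, adjusted p = 0.0850) and without nerve replicate 1, nerve replicate 3 or inner ONL replicate 2 (0.80, 0.61 and 0.59, adjusted p = 0.0521, 0.133 and 0.144).

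Outer ONL against olfactory nerve gave a mixed picture. Of 10 genes 7 were called, where 22% of all genes were called in either direction. Th (3.35 ± 0.71, adjusted p = 7.16e-04), Gad1 (2.95 ± 0.85, adjusted p = 0.0117), Eomes (2.89 ± 0.91, adjusted p = 0.0208), Tbr1 (2.75 ± 0.70, adjusted p = 0.00454) and Slc17a7 (2.15 ± 0.74, adjusted p = 0.0358) were higher in outer ONL. Calb2 was lower (-1.78 ± 0.30, adjusted p = 3.68e-05), as was Reln (-1.16 ± 0.42, adjusted p = 0.0456). The libraries of the 2 groups did not overlap for Th and Calb2, and overlapped for the other 5 genes called, where 24.3% of all genes did not overlap. The same-numbered libraries of these groups deviated together over all genes (correlation 0.158 to 0.347). Some with unlike numbers did too, such as outer ONL replicate 2 with nerve replicate 4 (0.27) and outer ONL replicate 3 with nerve replicate 1 (0.2). The numbers therefore do not establish pairs. With replicate number as a block 5 genes were called. The blocked Slc17a7 value lost its call (1.41, adjusted p = 0.137), and Eomes and Tbx21 did not pass the filter of that fit. The Th, Gad1 and Calb2 calls held without any 1 library, with Gad1 at 4.28 without nerve replicate 2. Eomes lost its call without outer ONL replicate 2 (1.26) or nerve replicate 1, 3 or 4 and rose to 5.16 without nerve replicate 2, Tbr1 lost it without outer ONL replicate 2 (1.94), Slc17a7 without outer ONL replicate 2 or 4 or nerve replicate 1, 3 or 4 (1.36 without outer ONL replicate 4), and Reln without outer ONL replicate 1, 3 or 4 or nerve replicate 2 or 3 (-1.24 to -0.81), with -1.79 without outer ONL replicate 2. With outer ONL replicates 1 and 3 only, none of the 5 higher genes kept its call, and since these libraries were chosen as the lowest for all 10 genes, the choice fixes that the values fall. The 3 genes called were then Calb2, Reln and Slc17a6, all lower in outer ONL, with -2.33 for Slc17a6 (adjusted p = 0.0192). The values became -1.83 for Eomes (adjusted p = 0.383), 0.89 for Tbr1 (adjusted p = 0.524) and 1.95 for Th (adjusted p = 0.0771).

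Olfactory and trigeminal nerve at E16.5 differed in 5 of the 10 genes, all higher in olfactory nerve, where 13% of all genes were called higher. Calb2 was 205-fold higher (7.68 ± 0.48, adjusted p = 1.56e-12) and Gad2 69.6-fold (6.12 ± 0.92, adjusted p = 7.73e-06). Slc17a6 was higher by 4.26 ± 0.75 (adjusted p = 7.12e-05). Slc17a7 (3.66 ± 1.10, adjusted p = 0.0140) and Th (2.80 ± 1.01, adjusted p = 0.0423) were also called. Both lost the call without olfactory nerve replicate 2 or trigeminal nerve replicate 2 or 3, which left 3 genes, and Th also without olfactory nerve replicate 3 or 4 (adjusted p up to 0.153). Of the 14 trigeminal counts of Gad2, 13 lay in replicate 2, without which the value was 8.95, and Th stood at 3.86 without replicate 1. All 60 trigeminal counts of Slc17a6 and all 9 of Slc17a7 lay in replicate 1, and without it the fitted values were 10.96 and 7.69 against a group at 0. Tbr1, Eomes, Tbx21 and Gad1 did not exceed 4.21 CPM in any library of either nerve and were not called. Reln stood above 79 CPM in every library of both and was not called (adjusted p = 0.215), although every trigeminal library lay above every olfactory nerve library.

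At E13.5, ONL was higher than nerve in 9 of 10 genes, where 15.4% of all genes were called higher. Tbr1 was 340.0-fold higher (8.41 ± 0.55, adjusted p = 8.04e-13). Eomes, at the floor in the nerve, was at least 218-fold higher (adjusted p = 1.47e-09) and Tbx21 at least 5.17-fold (adjusted p = 4.48e-04). Gad1 was higher by 4.72 ± 0.81, Th by 4.66 ± 0.73 and Slc17a7 by 3.88 ± 0.66, with adjusted p of 2.64e-05, 6.79e-06 and 2.34e-05. Calb2 (3.15 ± 0.24), Reln (2.58 ± 0.35) and Slc17a6 (2.29 ± 0.44), which the nerve also carried, differed less. Gad1 stood at 5.60 without the library labelled E13.5 olfactory nerve replicate 6 and Slc17a7 at 4.54 without replicate 4. Gad2 alone was not called, at -0.78 ± 0.52 (adjusted p = 0.283), with overlapping libraries. The median log2 value was 4.27, or 3.52 with Eomes and Tbx21 at their bounds, against -0.03 over all genes. The 5 ONL and 7 nerve libraries came from 4 embryos each, so these p-values are too small. With the libraries grouped by label, Th alone was called (5.80, adjusted p = 4.52e-04), and 7 of the 9 directions turned, the exceptions being Th and Slc17a6. The label groups held unlike libraries. By label the 7 nerve libraries averaged 33.1 ± 85.8 CPM of Tbr1, with 228 CPM in replicate 1 and at most 1.75 CPM in the other 6, and the 5 ONL libraries averaged 4.64 ± 2.68 CPM.

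Nerve changed between E11.5 and E13.5 in 6 of 10 genes, where 36.6% of all genes were called in either direction. Th fell by 8.47 ± 0.73 on the log2 scale (adjusted p = 2.76e-10), a 354-fold difference. Tbr1 (-2.76 ± 0.54, adjusted p = 1.68e-04) and Slc17a6 (-1.95 ± 0.46, adjusted p = 0.00123) were also lower at E13.5. Eomes was at least 8.18-fold lower (adjusted p = 3.00e-04). Gad1 was lower (-2.14 ± 0.85, adjusted p = 0.0487) and Gad2 higher (1.44 ± 0.56, adjusted p = 0.0441), both at the edge of the threshold and with overlapping libraries. The Gad1 call was lost without 8 of the 11 libraries in turn (with the labels E13.5 olfactory nerve 2, 3, 4, 5 or 7 or E13.5 ONL 1, 3 or 5) and the Gad2 call without 6 (E13.5 olfactory nerve 2, 3 or 6 or E13.5 ONL 2, 4 or 5), while Gad2 rose to 2.41 without E13.5 ONL replicate 3. Gad1 stood at -3.03 without E13.5 olfactory nerve replicate 6, and Th at -7.86 without E13.5 ONL replicate 2. Without E13.5 ONL replicate 5, Gad1 stood at -1.24 (adjusted p = 0.303) and Gad2 at 1.16 (adjusted p = 0.142). Reln, Calb2, Slc17a7 and Tbx21 were not called. The E11.5 pieces came from 2 embryos, so these p-values are too small. Grouped by label, Slc17a6 kept its call and the other 5 lost it (adjusted p = 0.0616 for Tbr1, 0.168 for Eomes, 0.230 for Gad1, 0.214 for Gad2 and 0.1 for Th, at -2.34), while Tbx21, Reln and Calb2 were called.

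Between the ONL at E13.5 and the inner ONL at E16.5, the genes moved in different directions. Of 10 genes 6 were called, where 34.5% of all genes were called in either direction. Th was 13.9-fold higher at E16.5 (3.80 ± 0.62, adjusted p = 2.13e-05), Slc17a7 7.62-fold (2.93 ± 0.66, adjusted p = 8.66e-04), Gad1 7.19-fold (2.85 ± 0.75, adjusted p = 0.00367) and Gad2 4.06-fold (2.02 ± 0.58, adjusted p = 0.00727). Tbr1 was 10.4-fold lower (-3.37 ± 0.52, adjusted p = 9.14e-06) and Calb2 1.72-fold lower (-0.78 ± 0.27, adjusted p = 0.0263). The Calb2 call was lost without inner ONL replicate 1, 3 or 4 or the library labelled E13.5 olfactory nerve replicate 1 (adjusted p = 0.0547 to 0.0941). Eomes, Tbx21, Reln and Slc17a6 were not called, with adjusted p from 0.195 to 0.602. Pan-neuronal genes summed to 2889 to 4662 CPM in E13.5 ONL and 1791 to 3529 CPM in inner ONL, and forebrain genes to 495 to 626 and 64.9 to 186 CPM. Their part in the result was not tested. The E13.5 pieces share embryos, so these p-values are too small. Grouped by label, Tbr1 (2.46) and Calb2 (2.36) turned upward at E16.5, and Th was no longer called. Slc17a7 (6.45) and Gad1 (5.64) kept their calls at larger values.

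Outer ONL at E16.5, by contrast, held less of 5 genes than ONL at E13.5, where 20% of all genes were called lower. Tbr1 was 83.9-fold lower (adjusted p = 2.24e-09), Eomes 18.1-fold, Slc17a6 14.5-fold, Calb2 10.5-fold and Reln 5.57-fold, with adjusted p up to 8.64e-05 and, again, pieces at E13.5 that share embryos. Gad1, Gad2, Th, Slc17a7 and Tbx21 were not called, with log2 values from -1.79 ± 0.99 for Tbx21 to 0.97 ± 0.60 for Th. Without outer ONL replicate 2, Tbr1 stood at -7.20, Eomes at -5.81 and Reln at -3.10. Grouped by label, 3 genes were called, and Eomes (0.83) and Reln (0.53) turned. This comparison and the preceding one share the E13.5 ONL libraries.

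Whether the difference between ONL and nerve itself changed with stage was tested as an interaction. With inner ONL as the E16.5 layer, Calb2 was the only gene called (-2.32 ± 0.37, adjusted p = 9.09e-05), a narrower gap between layer and nerve at E16.5, where 4.6% of all genes were called in that direction. With outer ONL, 5 genes were called, all with a narrower or turned gap, where 6.75% of all genes were called so. These were Tbr1 (-5.66 ± 1.03, adjusted p = 3.04e-04), Eomes (-7.21 ± 1.54, adjusted p = 0.00166), Reln (-3.74 ± 0.55, adjusted p = 3.35e-05), Slc17a6 (-2.86 ± 0.71, adjusted p = 0.00632) and Calb2 (-4.93 ± 0.39, adjusted p = 3.05e-09). The Eomes value rests on nerve libraries at the floor, so its size is no bound, and it lost its call without E16.5 nerve replicate 2 (-4.94, adjusted p = 0.219). Without outer ONL replicate 2, Tbr1 stood at -6.47, Eomes at -8.84 and Reln at -4.37. Fitted to its 4 groups alone, the test with inner ONL called 5 genes. Both tests contain E13.5 groups whose pieces share embryos, so their p-values are too small. Grouped by label, 7 genes were called with inner ONL, among which Calb2 was not (2.05, adjusted p = 0.0610), and with outer ONL the edgeR test called 0, with 5 of 10 at an unadjusted p under 0.05.

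Related genes shared their reads in different proportions from group to group. These shares need no library scaling. The direction of a change between groups does not depend on gene length, although its size in percentage points does. Of Gad1 and Gad2 counts together, Gad1 took 75.3, 71.6, 71.5 and 63.8% in the 4 inner ONL libraries and 0, 37.8, 9.04 and 3.32% in the 4 nerve libraries at E16.5. The mean share was 70.5% ± 4.85 against 12.5% ± 17.2 (exact unpaired permutation p = 0.0286, the smallest an unpaired test allows here, adjusted p = 0.0286). This test treated the libraries as independent although the 2 regions share embryos, so its p-value does not allow for that sharing. The 2 groups did not overlap. At E13.5, Gad1 took 66.0, 66.7, 47.2, 54.5 and 55.4% in ONL and 0% to 10.7% in the 7 nerve libraries (exact permutation p = 0.00253, adjusted p = 0.0101). By label the groups overlapped. Libraries labelled E13.5 ONL held 4.71, 18.9, 14.6, 2.94 and 69.7%. Those labelled E13.5 olfactory nerve held 55.4% in replicate 1 and 0% to 10.7% in the others. In nerve at E11.5 the Gad1 share ran from 2.94% to 69.7%, the high value being the library labelled E13.5 ONL replicate 5.

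Of the 2 vesicular glutamate transporters, Slc17a7 took 4.24, 10.8, 5.07, 3.38 and 12.5% of the reads in ONL at E13.5 and 52.2, 35.1, 54.2 and 40.7% in inner ONL at E16.5. The means were 7.22% ± 4.17 and 45.6% ± 9.17 (exact permutation p = 0.0159, adjusted p = 0.0212), and the groups did not overlap. In nerve at E11.5, where Slc17a6 was abundant, the share was 0.284% to 1.57%. Of Eomes and Tbr1 reads, Eomes took 25.2, 18.3, 10.4, 13.7 and 21.2% in ONL at E13.5 and 65.2, 49.0, 46.5 and 54.0% in inner ONL at E16.5, again without overlap (exact permutation p = 0.0159, adjusted p = 0.0212). These 4 tests were two-sided, were chosen after the values had been seen, and were adjusted together by Benjamini-Hochberg. Those with E13.5 groups treat pieces of the same embryo as separate and were not run with libraries grouped by label.

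**Figure D4:**
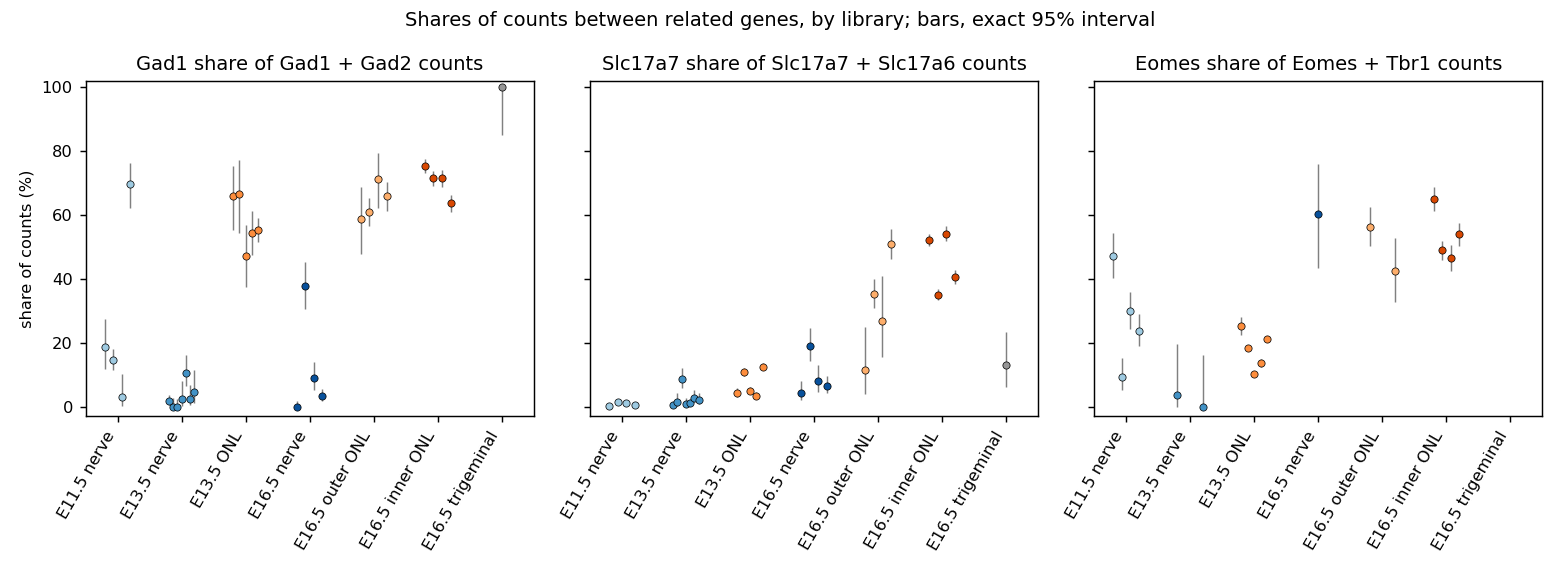
Share of the first gene in the summed counts of 2 related genes (vertical axis, %), by library (points, with exact 95% binomial intervals that cover counting error only) and group. Early groups follow the authors' table of group means. Libraries with fewer than 20 counts on the pair are left out. Gad1 takes over 47% in each ONL library and, among olfactory nerve libraries at E13.5 and E16.5, at most 37.8%.

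Other genes of the same neuron classes, from lists written with earlier results of these data known, were counted beside the 10. Between inner and outer ONL at E16.5, of 8 other genes of bulb projection neurons 5 were higher and 1 lower in inner ONL (median 1.51). The highest was Cdhr1, a cadherin-related protein of mitral and tufted cells, at 491 ± 197 CPM in inner and 47.8 ± 48.1 CPM in outer ONL (3.35 ± 0.68). Lbhd2 was also higher (2.45 ± 0.64), and Shisa3 was the gene that was lower (-2.58 ± 0.74). Of 15 other interneuron genes 8 were higher (median 1.79), led by the transcription factor genes Pax6 (2.64 ± 0.62), Dlx1 (2.52 ± 0.67) and Meis2 (2.36 ± 0.60). Of 8 pan-neuronal genes 7 were higher (median 2.57), among them Syt1 of synaptic vesicles (3.46 ± 0.55), Tubb3 (2.87 ± 0.48) and Snap25 (2.66 ± 0.37). Of 7 forebrain genes 3 were higher, with Neurod6 at 3.67 ± 0.70 and Bcl11b at 2.78 ± 0.51, and of 4 Cajal-Retzius genes 2 were, with Trp73 at 2.89 ± 0.59 (medians 2.27 and 2.83). Of all genes, 8.2% were called higher and 5.94% lower. Of 7 genes of olfactory sensory neurons 2 were lower (median -1.23), including Gng8 (-1.23 ± 0.25). Of 8 glial genes 2 were lower (median -0.21), including S100b (-1.75 ± 0.36), and of 4 sensory ganglion genes tested edgeR called 0, with 0 at an unadjusted p under 0.05. The median over all genes was -0.05.

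At E13.5 the lists divided differently, where 16.1% of all genes were called lower in ONL and 15.4% higher. Of 8 other projection neuron genes 3 were higher and 1 lower in ONL than in nerve, led by Neurod2, a factor of glutamatergic neurons that stood at 21.5 ± 9.10 CPM in ONL and had at most 3 counts in each nerve library, and including Ntng1 (1.43 ± 0.31, list median 1.04). Of the 15 other interneuron genes 7 were higher and 4 lower (median 1.29). Calb1, which encodes the calcium-binding protein calbindin, was higher (3.97 ± 0.39), whereas Dlx5 stood at 4.62 ± 1.22 CPM in ONL and 40.6 ± 11.1 CPM in nerve (-3.13 ± 0.32) and Dlx6 was lower too (-4.12 ± 0.52). Of 7 forebrain genes 5 were higher, among them Neurod6 (8.15 ± 0.69) and Emx1 (5.74 ± 0.65). Pan-neuronal genes were higher in 6 of 8 (median 1.68), led by Syt1 (3.52 ± 0.43), Map2 (3.28 ± 0.20) and Snap25 (2.21 ± 0.29), and Cajal-Retzius genes in 3 of 4 (median 2.31), with Trp73 at 2.34 ± 0.46. Of 7 sensory neuron genes 6 were lower (median -3.09), including the cyclic nucleotide channel gene Cnga2, at 11.2 ± 2.52 CPM in nerve and at most 3 counts in each ONL library, and Gng8 (-3.56 ± 0.23). Of 8 glial genes 6 were higher and 2 lower, with Fabp7 at 3.46 ± 0.24, Npy at 7.54 ± 0.47 and Prss56 at 66.6 ± 21.1 CPM in ONL against at most 3 counts in each nerve library (median 1.80). Of 5 sensory ganglion genes, 4 were tested and 1, Prph, was lower (-4.36 ± 0.41). The median over all genes was -0.03. These counts follow the authors' grouping of the early libraries.

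Over the 31 libraries, the 10 genes fell into patterns that crossed the neuron classes. Of the 45 pairs, Tbr1 and Eomes were the most alike (Pearson r = 0.95 on log2 of CPM plus 0.5), followed by Tbx21 with Slc17a7 (0.90) and Slc17a7 with Gad1 (0.90). The least alike were Reln with Th (0.12) and Reln with Gad2 (0.13). Likeness was sought among 10714 genes with a mean of at least 10 CPM, a count that includes any of the 10 at that level, which were left out as matches. Those most like each gene were Mir124-2hg, Fezf2 and Pantr1 for Tbr1 (r = 0.97 to 0.98), Plppr1, 2900011O08Rik and Mir124-2hg for Eomes (0.96 to 0.97) and Dync1i1, Rasgrf1 and Nrsn1 for Tbx21 (0.89 to 0.91). For Reln they were Brinp1, Epha3 and Hivep2 (0.89 to 0.91), for Slc17a6 Bex2, Stmn3 and Ina (0.96 to 0.97) and for Slc17a7 Rasgrf1, Dync1i1 and Gabrg1 (0.94 to 0.96). For Gad1 they were Far2, Gabrg1 and Nrxn3 (0.92 to 0.94), for Gad2 Rims3, Cacna1d and Pax6 (0.80 to 0.86), for Th Fxyd6, Crtac1 and Dnajc1 (0.87 to 0.89) and for Calb2 Acsl6, Dpysl3 and Nsg2 (0.93 to 0.96). Gad2 had the lowest such values. The libraries share groups, stages and depth, so these are descriptions without a test.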

How the data were processed

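The authors cut the pieces under fluorescence, amplified RNA with SMART-seq V4, made Nextera XT libraries and deposited raw counts of reads per Ensembl gene, made with TopHat2 2.1.0 on mm10 and HTSeq. The strand setting was not given, and the kit does not mark strand, so reads of Gad1, Eomes and Reln cannot be told apart from those of antisense genes that overlap them. The counts were used as deposited, with 1 blank row left out. Here edgeR 4.0.16 (TMM, filterByExpr, quasi-likelihood test, p adjusted by Benjamini-Hochberg) in R 4.3.3 was fitted once to all 31 libraries with 7 groups. DESeq2 1.42.0 was an alternative, with other scalings, filters, groupings by label, fits of fewer groups, replicate blocks and leaving out each library. The methods were tested on simulated data. Members and gene lists were chosen with earlier results of these data known. Named list genes were up to 3 per list with the largest called change and at least 10 CPM in the higher group. Like genes were the 3 with the highest Pearson r. A fold against a group with at most 3 counts per library is a bound computed from 3 counts in each library. Same-numbered libraries were taken as paired for outer ONL and nerve at E16.5, from the data alone (correlation of deviations 0.158 to 0.347, other pairs -0.28 to 0.27). These ranges overlap, so the pairing is uncertain. Shares were compared by exact permutation (SciPy 1.17.1). Intervals cover counting error only.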

Additional observations from a re-analysis of the deposited data

Results flagged for a closer look

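Values far from the rest of their group by Dixon's test at the 95% level were found in 6 of 56 gene and group pairs, where chance gives about 1 in 20. Eomes was high in E16.5 olfactory nerve replicate 2 (1.42 CPM, the other 3 libraries at most 0.222). Slc17a6 was high in the library labelled E11.5 olfactory nerve replicate 1 (231 CPM, among the E13.5 ONL libraries) and in E16.5 olfactory nerve replicate 4 (20.2 CPM). In the E13.5 nerve group, Slc17a7 was high in the library labelled replicate 4 (1.96 CPM) and Gad1 in replicate 6 (1.33 CPM). Gad2 was high in the library labelled E13.5 ONL replicate 3 (10.8 CPM, among the E11.5 nerve libraries).

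The gap between ONL and nerve differed between E16.5 and E13.5 by the interaction test (edgeR, adjusted p under 0.05, log2 difference of differences). With inner ONL, Calb2 differed by -2.32. With outer ONL the values were -5.66 for Tbr1, -7.21 for Eomes, -3.74 for Reln, -2.86 for Slc17a6 and -4.93 for Calb2.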

How the results depend on the processing

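Leaving out each library in turn gave 7 to 10 genes called for inner against outer ONL, 8 to 9 for inner ONL against nerve, 4 to 6 for outer ONL against nerve, 3 to 5 for olfactory against trigeminal nerve, 9 to 9 for ONL against nerve at E13.5, 4 to 5 for E13.5 against E11.5 nerve, 5 to 6 for inner or outer ONL against E13.5 ONL, and 1 to 2 and 4 to 5 for the interaction with inner and outer ONL. Outer ONL against nerve gave 4 genes with the E16.5 libraries alone or the 2 groups alone, and 3 with outer ONL replicates 1 and 3 only, where Eomes (-1.83) and Slc17a7 (-1.07) turned. That last setting keeps the libraries lowest for the 10 genes, so it fixes the direction of the shift. It was chosen after seeing the data and gave 7 genes for outer ONL against E13.5 ONL and 7 for the outer interaction. The interaction with inner ONL gave 5 genes with its 4 groups alone. With a replicate block, olfactory against trigeminal nerve gave 3 genes (Slc17a7 and Th lost) and Gad2 was called for inner ONL against nerve (1.22, adjusted p = 0.00460). Apart from the outer ONL values given with the result, the block changed no other call. Same-numbered libraries correlated by -0.0745 to 0.191 for inner ONL and nerve, -0.116 to 0.221 for inner and outer ONL and -0.198 to 0.0765 for the 2 nerves, which was not taken as pairing, although the regions share embryos.

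The E16.5 groups hold the same libraries whether the early ones are grouped by label or not, and share 1 fit with them. Grouping early libraries by label gave 5 genes for inner against outer ONL, 1 for outer ONL against nerve, 3 for olfactory against trigeminal nerve, 1 for ONL against nerve at E13.5, 3 for outer ONL against E13.5 ONL, and 7 and 0 for the interactions. It turned Tbr1 (-2.84), Eomes (-2.39), Tbx21 (-0.94), Reln (-1.21), Slc17a7 (-1.64), Gad1 (-0.81) and Calb2 (-1.22) for ONL against nerve at E13.5, Tbr1 (2.46) and Calb2 (2.36) for inner and Eomes (0.83) and Reln (0.53) for outer ONL against E13.5 ONL, Calb2 (2.05) in the inner interaction, and Tbr1 (5.58), Eomes (5.27) and Reln (0.046) in the outer one. The cause was not tested. Counts of 3 or fewer in a library were not told apart from 0, which limits Tbx21 in every olfactory nerve group and Eomes in nerve at E13.5.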
